A study of Mus musculus with 12 samples.

Results

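Class III receptor tyrosine kinases are the family of growth factor receptors encoded in the mouse by Flt3, Kit, Csf1r, Pdgfra and Pdgfrb. Every probe set annotated with exactly 1 of these 5 symbols was taken, which gave 11 of the 45037 probe sets measured. Each receptor of the family binds its ligand through immunoglobulin-like domains outside the cell, pairs with a second receptor, and signals through a kinase domain that is split by an insert. Flt3 is known from multipotent and lymphoid-primed progenitors and from the dendritic cell lineage, Kit from stem cells, early progenitors and mast cells, and Csf1r from monocytes and macrophages. The platelet-derived growth factor receptors are best known from mesenchymal cells, with Pdgfrb a common marker of pericytes.

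The 12 arrays were made from bone marrow of female C57BL/6 mice aged 4 to 6 weeks, 3 for each of 4 sorted progenitor populations, and the labels name no treatment or mutation. All cells were lineage negative, CD117+ and Sca-1-, and CD117 is the protein product of Kit. The common myeloid progenitors (CMP), CD34+ and CD16/32-, were divided into CD27+ CMP and CD27- CMP. Granulocyte-monocyte progenitors (GMP) were CD34+, CD16/32+ and CD27+, and megakaryocyte-erythrocyte progenitors (MEP) lacked these 3 antigens. Whether the 3 biological replicates of each population came from different mice is not stated in the labels, so p-values measure only how much these arrays vary.

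The deposited values were read as log2 signals, although the log base is not stated, and each probe set has a median of 0 over the 12 arrays. A positive value is therefore a signal above that probe set's own median, levels of different genes cannot be set against each other, and a probe set that reads the same on all arrays tells nothing about its level. In bulk RNA of sorted cells, a difference in the number of cells that express a gene cannot be told apart from a difference in RNA per cell. Differences are given as the first population minus the second, with the standard error (SE) and adjusted p of limma. All 5 granulocyte-monocyte markers (Mpo, Elane, Cebpa, Csf3r and Ctsg) were higher in CD27+ CMP than in CD27- CMP and in GMP than in MEP. All 5 erythroid markers (Klf1, Epor, Gata1, Gfi1b and Car1) were lower in both comparisons. Cd34, the gene of a sort antigen, averaged 4.10 in CD27+ CMP, -3.22 in CD27- CMP, 3.03 in GMP and -4.91 in MEP, although both CMP fractions were sorted as CD34+.

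The 5 receptor genes divided into 3 that differed between populations and 2 that passed in no comparison. Between CD27+ CMP and CD27- CMP, 6 of the 11 probe sets were higher in CD27+ CMP, against 7.65% of all probe sets, and 0 were lower. These 6 are all the probe sets of Flt3, Csf1r and Pdgfrb. The same 6 were higher in GMP than in MEP, where 7.54% of all probe sets were higher, and in CD27+ CMP than in MEP, where 7.67% were. Between CD27+ CMP and GMP, 3 of 11 were higher in CD27+ CMP (1.47% of all probe sets), namely those of Flt3 and Pdgfrb. Between CD27- CMP and MEP, 0 of 11 passed, against 0.0444% of all probe sets, while 4 had an unadjusted p under 0.05. The share of all probe sets under that unadjusted p was not taken, so these 4 are not read as differences. Between CD27- CMP and GMP, 5 of 11 were lower in CD27- CMP, against 7.90% of all probe sets. Probe sets of 1 gene measure the same transcripts and are not independent of each other.

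**Figure D1:**
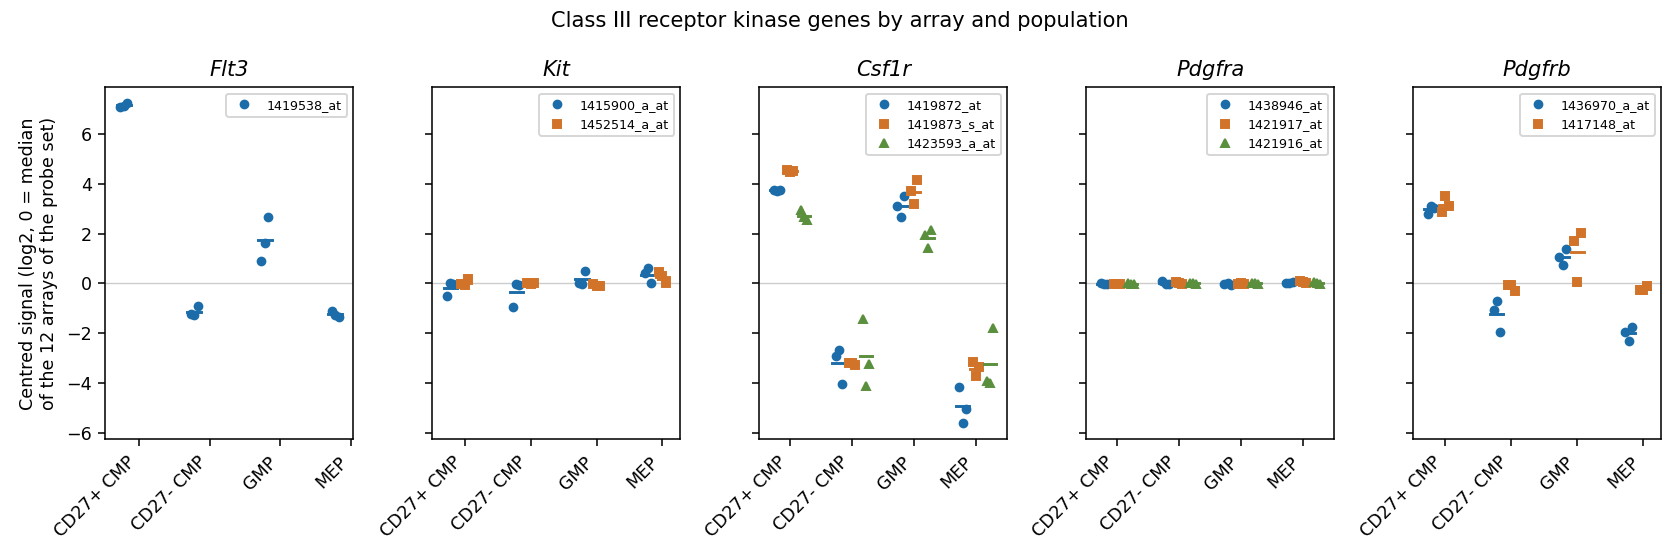
Centred log2 signal (vertical axis) of the 11 probe sets in each of the 12 arrays, by gene and population, with a short line at the mean of 3 arrays and a marker for each probe set. Flt3 stands near 7 in CD27+ CMP alone, Csf1r is high in both CD27+ CMP and GMP, Pdgfrb is highest in CD27+ CMP, and the points of Kit and Pdgfra stay near 0.

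Flt3, the receptor for Flt3 ligand, was the receptor gene with the largest difference between the CMP fractions and between CD27+ CMP and GMP. Its single probe set, 1419538_at, read 7.09, 7.11 and 7.22 in CD27+ CMP and -1.24, -1.25 and -0.92 in CD27- CMP. In GMP it read 0.92, 1.62 and 2.65, and in MEP -1.10, -1.25 and -1.36. The 3 CD27+ CMP arrays lay close together and more than 4 log2 above every other array. The GMP arrays were spread widely but lay above all CD27- CMP and MEP arrays, and those of CD27- CMP and MEP overlapped.

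The order of Flt3 signal was thus CD27+ CMP, GMP, and then CD27- CMP and MEP together. CD27+ CMP exceeded GMP by 5.41 log2 (SE 0.35, adjusted p = 5.8e-05), a 42.6-fold difference. The difference was 8.28 log2 against CD27- CMP (SE 0.35, adjusted p = 4.3e-07) and 8.38 against MEP (adjusted p = 3.4e-07). GMP exceeded MEP by 2.96 (adjusted p = 0.00028), and CD27- CMP minus GMP was -2.86 (adjusted p = 0.00039). The lowest neighbours did not pass: CD27- CMP minus MEP was 0.10, with a 95% interval from -0.69 to 0.89 (adjusted p = 0.93). GMP was the population with the widest spread for Flt3, with an SD of 0.87 against 0.07 in CD27+ CMP (n = 3 each).

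Csf1r, the receptor for CSF1 and interleukin 34 that monocytes and macrophages depend on, was high in both CD27+ populations. The probe set that varied most, 1419872_at, read 3.75, 3.70 and 3.75 in CD27+ CMP and -2.89, -2.65 and -4.03 in CD27- CMP. It read 3.12, 2.65 and 3.50 in GMP and -4.14, -5.61 and -5.04 in MEP. The 6 CD27+ CMP and GMP arrays lay more than 5 log2 above the 6 CD27- CMP and MEP arrays.

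For Csf1r the difference between CD27+ CMP and CD27- CMP was 6.92 log2 (SE 0.44, adjusted p = 5.2e-06), and between GMP and MEP 8.02 (SE 0.44, adjusted p = 1.7e-06). The other probe sets gave 7.73 and 5.62 between the CMP fractions, and 7.09 and 5.08 between GMP and MEP. Each of these 4 differences passed. CD27- CMP minus GMP was -6.28 (adjusted p = 9.1e-06). The upper neighbours, CD27+ CMP and GMP, did not pass for any of the 3 probe sets, with differences of 0.64, 0.84 and 0.86, although all 3 CD27+ CMP arrays lay above all 3 GMP arrays each time, as for 5.54% of all probe sets. For 1419873_s_at the difference of 0.84 had an adjusted p of 0.10 and a 95% interval from 0.34 to 1.33. Without GMP replicate 3 it passed, at an adjusted p of 0.020 by limma. It also passed by limma under quantile normalization (1.23, adjusted p = 0.026), with array weights (0.82, adjusted p = 0.029) and with a range filter of 1 log2 (adjusted p = 0.046). The suffix of that probe set marks a design that can bind transcripts of more than 1 gene.

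CD27- CMP and MEP, the low end for Csf1r, were told apart less well. The most variable probe set read 1.74 higher in CD27- CMP (SE 0.44, unadjusted p = 0.0031 and adjusted p = 0.43 by limma), with no overlap of the arrays, as for 1.63% of all probe sets in that direction. When arrays were weighted in the limma fit by their residual spread, this became 2.73 and passed (adjusted p = 0.0032). MEP replicate 2 then had a weight of 11.1, against 0.550 and 0.451 for MEP replicates 1 and 3. CD27- CMP replicate 2 had 2.14, against 0.638 and 0.184 for replicates 1 and 3. The weighted difference thus rests mostly on replicate 2 of each population. In that fit 1608 of all probe sets were higher and 2212 lower in this comparison, in place of 5 and 15. The other Csf1r probe sets gave 0.19 and 0.32 with overlapping arrays. Over the alternatives run these ran from -0.31 to 0.48 and from -0.43 to 1.04, so neither has a settled sign. Low readings depend strongly on the background model of GCRMA, so their depth is uncertain.

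Pdgfrb, the beta receptor for platelet-derived growth factors, had its highest signal in CD27+ CMP. Probe set 1436970_a_at read 2.78, 3.09 and 3.02 in CD27+ CMP, -1.05, -0.72 and -1.94 in CD27- CMP, 1.06, 0.72 and 1.38 in GMP, and -1.94, -2.31 and -1.74 in MEP. The CD27+ CMP arrays lay above all others, the GMP arrays above those of CD27- CMP and MEP, and CD27- CMP overlapped with MEP.

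By that Pdgfrb probe set, CD27+ CMP stood 4.20 log2 above CD27- CMP (SE 0.30, adjusted p = 1.2e-05), above GMP by 1.91 (adjusted p = 0.0092) and above MEP by 4.96 (adjusted p = 3.7e-06). GMP exceeded MEP by 3.05 (adjusted p = 9e-05). CD27- CMP minus MEP was 0.76, with a 95% interval from 0.07 to 1.44 (adjusted p = 0.79). With weighted arrays it became 1.40 (adjusted p = 0.0052 by limma), in the fit where 1608 of all probe sets were higher and 2212 lower. That fit again rests mostly on replicate 2 of each of these populations. The second probe set, 1417148_at, gave 3.31 between the CMP fractions (adjusted p = 0.00054). Its readings in GMP were 1.68, 0.07 and 2.01, so that GMP replicate 2 stood beside the CD27- CMP and MEP arrays, which ran from -0.32 to -0.07.

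For 1417148_at, CD27+ CMP minus MEP was 3.37 (adjusted p = 0.00044), and 2 further calls were at the edge of the threshold. CD27+ CMP minus GMP was 1.90 (adjusted p = 0.0499) and GMP minus MEP 1.47 (adjusted p = 0.049). With only the 6 arrays compared in the limma fit, both calls ended, at adjusted p of 0.33 and 0.18. They also ended with the replicate number as a block, with array centring and with robust moderation. Leaving out 1 array ended the call of GMP minus MEP for GMP replicates 1 and 3 and each MEP array, at adjusted p from 0.10 to 0.17 by limma. It ended that of CD27+ CMP minus GMP for each CD27+ CMP array and GMP replicate 1, at adjusted p from 0.076 to 0.15. CD27- CMP minus GMP was -1.41 and did not pass (adjusted p = 0.060), but without GMP replicate 2 it was -2.0 and passed (adjusted p = 0.00019). By limma it also passed with array weights (-1.54, adjusted p = 0.011) and with a range filter of 1 log2 (adjusted p = 0.0086).

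Since Pdgfrb is best known from stroma, 8 mesenchymal and pericyte markers (Cxcl12, Lepr, Col1a1, Col1a2, Col3a1, Cspg4, Rgs5 and Acta2) were read beside it. By limma 0 of 8 passed in any of the 6 comparisons, and 0 had an unadjusted p under 0.05. Their mean centred signal per array ran from -0.02 to 0.05 in CD27+ CMP, 0.01 to 0.04 in CD27- CMP, -0.03 to 0.02 in GMP and 0.03 to 0.35 in MEP. Their differences between CD27+ CMP and CD27- CMP ran from -0.20 for Col1a2 to 0.24 for Acta2, beside 4.20 for Pdgfrb. Of 5 endothelial markers, Emcn (1.64) and Tie1 (1.40) were higher and Plvap (-4.25) was lower in CD27+ CMP than in CD27- CMP, and Cdh5 (-0.02) and Kdr (-0.01) did not pass. The mean of the 5 endothelial markers ran from 0.01 to 0.27 in CD27+ CMP, 0.26 to 0.50 in CD27- CMP, -0.48 to -0.21 in GMP and 0.31 to 0.33 in MEP. Their part in the Pdgfrb difference was not tested.

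Kit, the receptor for stem cell factor, differed little. All 4 populations were sorted as CD117+, so its levels are given as a description of cells chosen for the protein. Probe set 1415900_a_at read -0.52, 0.03 and -0.02 in CD27+ CMP, -0.93, -0.01 and -0.06 in CD27- CMP, 0.03, -0.03 and 0.51 in GMP, and 0.43, 0.62 and 0.01 in MEP. The populations overlapped, except that every CD27- CMP array lay below every MEP array, as for 5.56% of all probe sets. That difference, CD27- CMP minus MEP, was -0.68, with a 95% interval from -1.33 to -0.04 (unadjusted p = 0.040 and adjusted p = 0.79 by limma), and -0.38 without CD27- CMP replicate 1. Between CD27+ CMP and CD27- CMP the difference was 0.16 (95% interval -0.48 to 0.81).

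The second Kit probe set, 1452514_a_at, was read as 0.03 ± 0.12 in CD27+ CMP, 0.01 ± 0.03 in CD27- CMP, -0.08 ± 0.03 in GMP and 0.26 ± 0.22 in MEP (SD, n = 3). All 3 GMP arrays lay below all 3 MEP arrays, as for 22% of all probe sets, with a difference of -0.34 (adjusted p = 0.052). Without MEP replicate 3, the lowest MEP array, this became -0.46 (adjusted p = 0.0025), and CD27+ CMP minus MEP became -0.35 (adjusted p = 0.010) where it had been -0.23 (adjusted p = 0.17). Among 5 mast cell markers, which accompany high Kit in that lineage, Ms4a2 was higher in CD27+ CMP than in CD27- CMP (2.25) and in GMP than in MEP (3.62). Tpsb2, Cma1, Mcpt4 and Fcer1a did not pass in either comparison. The mean of the 5 mast cell markers ran from 0.12 to 0.38 in CD27+ CMP, -0.20 to -0.13 in CD27- CMP, 0.48 to 0.84 in GMP and -0.16 to -0.10 in MEP, and the part of mast cells in the Kit values was not tested.

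Pdgfra, the alpha receptor for platelet-derived growth factors, was flat. Its probe set 1438946_at ran from -0.02 to 0.00 in CD27+ CMP, -0.03 to 0.09 in CD27- CMP, -0.04 to 0.02 in GMP and 0.02 to 0.08 in MEP. The 3 probe sets had ranges of 0.13, 0.12 and 0.08 log2 over all arrays. The 95% intervals of the 6 differences of 1438946_at all lay between -0.13 and 0.10 log2. All 3 CD27+ CMP arrays lay below all 3 MEP arrays, with a difference of -0.05 log2 (adjusted p = 0.27), and 45.4% of all probe sets did the same. Whether Pdgfra was absent or evenly present cannot be read from centred values.

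**Figure D2:**
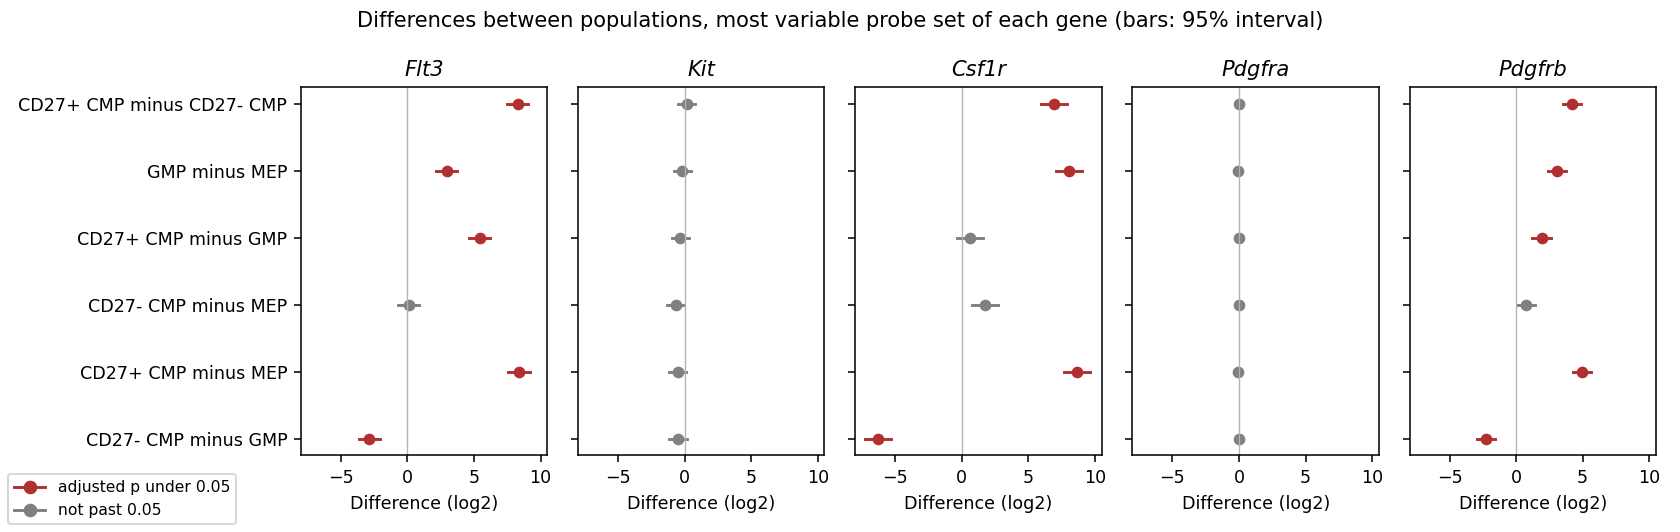
Differences between populations (horizontal axis, log2, first population minus second) for the most variable probe set of each receptor gene, with 95% intervals. Flt3 and Pdgfrb pass in every comparison except CD27- CMP minus MEP, Csf1r in 4 of 6, and Kit and Pdgfra in none.

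Flt3, Kit and Pdgfra had an entry in the RefSeq promoter table (GRCm38.p6), and the upstream windows of Flt3 and Kit are shown because, among these 3, Flt3 differed most between the populations while Kit passed in no comparison. Each window holds the 250 bases before an annotated start, 5′ to 3′ on the strand of the gene. Flt3 lies on the minus strand at chr5:147400490-147400739 and Kit on the plus strand at chr5:75574737-75574986. The windows were searched on both strands for the PU.1 core GAGGAA, the RUNX core TGTGGT, the core AGATAA of GATA factors and the C/EBP motif TTGCNNAA, and capitals mark a match.
Flt3: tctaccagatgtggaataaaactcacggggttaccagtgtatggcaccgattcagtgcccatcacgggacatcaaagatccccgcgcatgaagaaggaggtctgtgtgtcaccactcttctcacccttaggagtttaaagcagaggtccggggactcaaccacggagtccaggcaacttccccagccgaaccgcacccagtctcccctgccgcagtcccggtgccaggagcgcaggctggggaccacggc
Kit: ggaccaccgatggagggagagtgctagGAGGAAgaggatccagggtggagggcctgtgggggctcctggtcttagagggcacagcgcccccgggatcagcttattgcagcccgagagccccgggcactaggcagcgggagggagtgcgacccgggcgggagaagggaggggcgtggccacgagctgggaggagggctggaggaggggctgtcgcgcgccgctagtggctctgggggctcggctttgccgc
The Flt3 window held none of the 4 motifs, and the Kit window held GAGGAA once, at positions -223 to -218 from the start. Another annotated Kit start, not shown, has GAGGAA at -227 to -222. The Pdgfra window, also not shown, held the C/EBP match TTGCATAA at -118 to -111. Of the 32851 windows in the table, 23.3% held GAGGAA, 14.0% TGTGGT, 9.99% AGATAA and 9.56% TTGCNNAA. These matches describe letters in a window and are not evidence of binding. The GC content was 59.2% for Flt3 and 70.8% for Kit.

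Flt3 has Pan3 and Flt1 as neighbours on one side in RefSeq and Urad and Cdx2 on the other. Pdgfra and Kit are adjacent, followed by Kdr, and only the predicted gene Gm52351 separates Pdgfrb from Cdx1, with Csf1r and Hmgxb3 on its other side. For these neighbours and those that follow, counts are by gene, with 1 probe set per gene and p-values adjusted over 18193 genes. The receptor genes themselves were not counted, among them Csf1r and Pdgfrb, which are adjacent and both passed between the CMP fractions. Of the 9 other neighbours measured, 0 passed in any comparison, by limma, with at most 1 in a comparison at an unadjusted p under 0.05. Between CD27+ CMP and CD27- CMP, 12.1% of all genes were higher and 10.3% lower. Hmgxb3, next to Csf1r, read -0.42 between CD27+ CMP and CD27- CMP and -0.72 between GMP and MEP. Pan3 read 0.12 and 0.29, and Kdr, itself a receptor kinase, -0.01 and -0.02 in these comparisons.

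The ligands of the receptors were mostly flat in these cells. Of 7 measured, which leave out the Flt3 ligand gene, 1 was lower in CD27+ CMP than in CD27- CMP, against 10.3% of all genes, and 0 were higher. That gene was Pdgfd, which encodes a ligand of the beta receptor. Pdgfd read -0.96, -1.08 and -1.08 in CD27+ CMP, 0.96, 1.59 and 1.36 in CD27- CMP, -1.06, -1.02 and -0.97 in GMP, and 2.09, 2.25 and 1.37 in MEP. All CD27+ CMP and GMP arrays lay below all CD27- CMP and MEP arrays, the opposite side from Pdgfrb. The difference was -2.34 between the CMP fractions (SE 0.22, adjusted p = 4.5e-05) and -2.92 between GMP and MEP. The other Pdgfd probe sets read -0.09 and -0.06 between the CMP fractions and -0.14 and -0.10 between GMP and MEP.

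Csf1, which encodes the main ligand of Csf1r, read 0.07, 1.12 and 0.59 in CD27+ CMP and -0.08, -0.16 and -0.15 in CD27- CMP. It read 1.80, 2.32 and 2.09 in GMP and -0.24, -0.07 and -0.10 in MEP, so that GMP was highest without overlap. Csf1 was higher in GMP than in MEP (2.20) and lower in CD27+ CMP than in GMP (-1.48), and it did not pass between CD27+ CMP and CD27- CMP (0.72, adjusted p = 0.053). The call between CD27+ CMP and GMP did not hold in every alternative. The 3 other Csf1 probe sets read between -0.03 and 0.00 in the 3 comparisons. Kitl, Il34, Pdgfa, Pdgfb and Pdgfc passed in neither comparison, with differences between -0.04 and 0.13 for the CMP fractions.

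Transcription factors with a known role at the receptor genes in mouse blood cells moved in both directions. Of 10, 6 were higher and 3 lower in CD27+ CMP than in CD27- CMP, against 12.1% and 10.3% of all genes, with a median of 2.27 log2 against -0.03 over all genes. Cebpa and Gata1 are also among the lineage markers above. Those with the largest difference were Cebpa (7.13), Spi1 (5.39), which encodes PU.1 and activates Csf1r and Flt3, Runx1 (2.73) and Meis1 (2.45). Gata1 (-5.85), Tal1 (-2.49) and Gata2 (-0.77) were lower. Gata2 lost its call without any 1 of 4 arrays, CD27+ CMP replicates 1 or 3 or CD27- CMP replicates 1 or 2, at adjusted p from 0.0505 to 0.075. Of 6 Runx1 probe sets the others read 2.45, 2.18, 0.81, 0.35 and -0.08.

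Between GMP and MEP 6 of these factors were higher and 3 lower, against 11.5% and 11.2% of all genes. Cebpa (7.88), Spi1 (5.99), Mitf (2.55) and Hoxa9 (1.83) differed most among the first, and Gata1 (-6.86), Tal1 (-3.15) and Gata2 (-1.66) were the 3 lower. Runx1 (1.43) lost its call there without any 1 of GMP replicates 1, 2 or 3 or MEP replicates 2 or 3, at adjusted p from 0.065 to 0.12. Between CD27+ CMP and GMP 2 of 10 passed, Meis1 (1.94, adjusted p = 0.00057) and Gata2 (1.19, adjusted p = 0.0076), both higher in CD27+ CMP, against 2.58% of all genes, and 0 were lower, against 2.63%. Meis1, a homeobox factor of stem and early progenitor cells, read 1.87, 2.23 and 2.12 in CD27+ CMP, 0.06, -0.50 and -0.67 in CD27- CMP, 0.01, -0.01 and 0.41 in GMP, and -1.62, -1.67 and -1.38 in MEP. Like Flt3, it was highest in CD27+ CMP without overlap. Of its other probe sets, 1 read 2.36 between the CMP fractions, 0.22 between GMP and MEP and 2.34 between CD27+ CMP and GMP, and another read -0.03, -0.05 and 0.00. Spi1 (0.47) and Cebpa (-0.07) did not pass between CD27+ CMP and GMP, where Flt3 differed by 5.41. The part of any of these factors in the receptor differences was not tested.

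**Figure D3:**
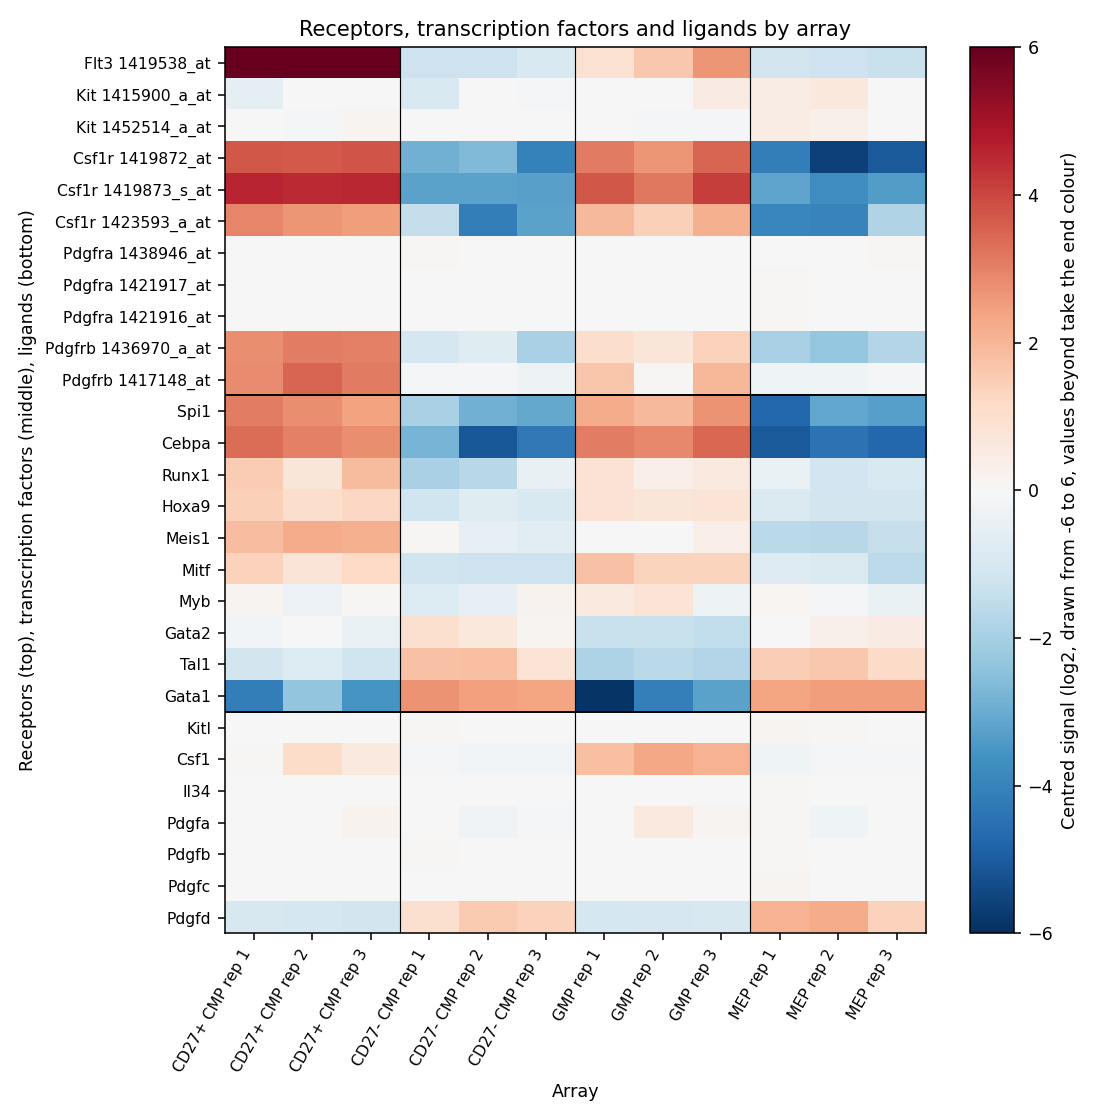
Centred log2 signal of the 11 receptor probe sets (top), 10 transcription factors (middle) and 7 ligands (bottom) in the 12 arrays, with red above and blue below the median of the row. Spi1 and Cebpa are red in CD27+ CMP and GMP as Csf1r is, Gata1 and Tal1 show the reverse, and most ligands are near 0 throughout.

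Signal transducers that act downstream of these receptors were more often higher than lower between the CMP fractions. Of 21 measured, 9 were higher and 2 lower in CD27+ CMP than in CD27- CMP, against 12.1% and 10.3% of all genes. The count lower thus did not stand above the share over all genes. Their median was 0.31 against -0.03 over all genes. The largest differences were those of Plcg2 (3.38), a phospholipase, Pik3cd (2.50), the leukocyte catalytic subunit of PI3 kinase, Stat3 (2.44) and the docking protein gene Gab2 (1.89). Pik3r2 (-1.82), a regulatory PI3 kinase subunit, and Nras (-0.66) were lower. Nras lost its call without CD27+ CMP replicate 3 (adjusted p = 0.051) or CD27- CMP replicate 1 (adjusted p = 0.053), and its other probe sets read 0.21 and -0.05. Further probe sets of Pik3cd ran from -0.04 to 2.06, those of Gab2 read 0.30 and -0.17, and those of Stat3 read 2.44, 0.49 and 0.05.

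Between GMP and MEP 8 of 21 transducers were higher and 6 lower, against 11.5% and 11.2% of all genes. Plcg2 (4.01), Pik3cd (2.65), Stat3 (2.49) and the exchange factor gene Vav1 (2.03) led the first, and Gab1 (-2.30), Pik3r2 (-1.89), Stat5a (-1.72) and Stat5b (-1.45) the second. Gab1 lost its call without GMP replicate 2 or MEP replicates 1 or 2, at adjusted p from 0.051 to 0.059, and its other probe sets read -1.56 and -0.07. Between CD27+ CMP and GMP, where 2.58% of all genes were higher and 2.63% lower, 3 transducers were higher, Fyn (2.01), Plcg1 (0.89) and Stat5a (0.76), and Map2k1 was lower (-0.38). Of these only Fyn, a Src family kinase, kept its call in every alternative. Fyn read 1.08, 1.66 and 1.00 in CD27+ CMP and -0.91, -0.65 and -0.74 in GMP, and its second probe set gave 1.94. The other probe sets of Plcg1 both read -0.02. Plcg1 lost its call without CD27+ CMP replicates 2 or 3 or GMP replicates 1 or 2, Stat5a without CD27+ CMP replicates 2 or 3 or GMP replicate 1, and Map2k1 without CD27+ CMP replicate 1 or GMP replicates 1 or 2, at adjusted p from 0.055 to 0.082.

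Of 13 negative regulators of receptor kinases, 6 were higher and 1 lower in CD27+ CMP than in CD27- CMP, against 12.1% and 10.3% of all genes, with a median of 0.70 against -0.03 over all genes. Sla (3.95), an adaptor that lowers surface receptors, Cbl (2.26), a ubiquitin ligase that marks activated receptors for degradation, and Sh2b3 (2.20), the adaptor Lnk that restrains Kit signalling, had the largest differences. Inpp5d, encoding the phosphatase SHIP1, followed at 1.06, but lost its call without CD27+ CMP replicates 2 or 3 or CD27- CMP replicates 1 or 3, at adjusted p from 0.057 to 0.066. Dok1 was lower (-1.30), a count of 1 that did not stand above the share over all genes. In GMP against MEP 5 were higher and 1 lower, against 11.5% and 11.2% of all genes, and the count lower again did not exceed that share. Sla stood at 5.23, Cbl at 2.16, the Sprouty gene Spry2 at 1.88, Sh2b3 at 1.42 and Dok1 at -1.21. Spry2 was the 1 of 13 that passed between CD27+ CMP and GMP, at -1.42, where 2.63% of all genes were lower, and its second probe set read 0.12 and -0.13 in these comparisons. The Spry2 call between CD27+ CMP and GMP did not hold in every alternative. Other probe sets of Cbl read 1.91 and 0.00, of Sh2b3 -0.09 and of Sla 2.05 to 2.50 between the CMP fractions.

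Other receptor tyrosine kinases were used to see how common such differences are within the wider class. Of 28 measured, 3 were higher and 1 lower in CD27+ CMP than in CD27- CMP, against 12.1% and 10.3% of all genes, so neither count stood above the share over all genes. Their median was -0.02, and 21 had a range under 1 log2 over the 12 arrays. Met, the hepatocyte growth factor receptor gene, differed most, at 5.63 between the CMP fractions and 6.76 between GMP and MEP. Met read 3.14, 2.70 and 2.49 in CD27+ CMP, -3.18, -2.49 and -2.89 in CD27- CMP, 3.87, 3.33 and 3.54 in GMP, and -3.14, -3.18 and -3.21 in MEP. A second Met probe set read -0.01 and -0.02 in these comparisons. Tie1 (1.40) and Epha2 (0.59) were the others higher in CD27+ CMP. Ryk, a receptor of Wnt ligands, was lower, at -4.49 and, by further probe sets, -4.65 and -0.07. Between GMP and MEP 3 were higher and 1 lower, against 11.5% and 11.2% of all genes, with Insr (1.30), the insulin receptor gene, and Tie1 (1.11) beside Met, and Ryk (-5.12) the one lower. Insr lost its call without any 1 of the GMP arrays or MEP replicates 2 or 3, at adjusted p from 0.056 to 0.16, and its other probe sets read -0.05 and -0.02. Tie1 lost its call without GMP replicate 3 or any 1 of the MEP arrays, at adjusted p from 0.069 to 0.092. Epha2 alone of the 28 passed between CD27+ CMP and GMP (0.60), a call that did not hold in every alternative.

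**Figure D4:**
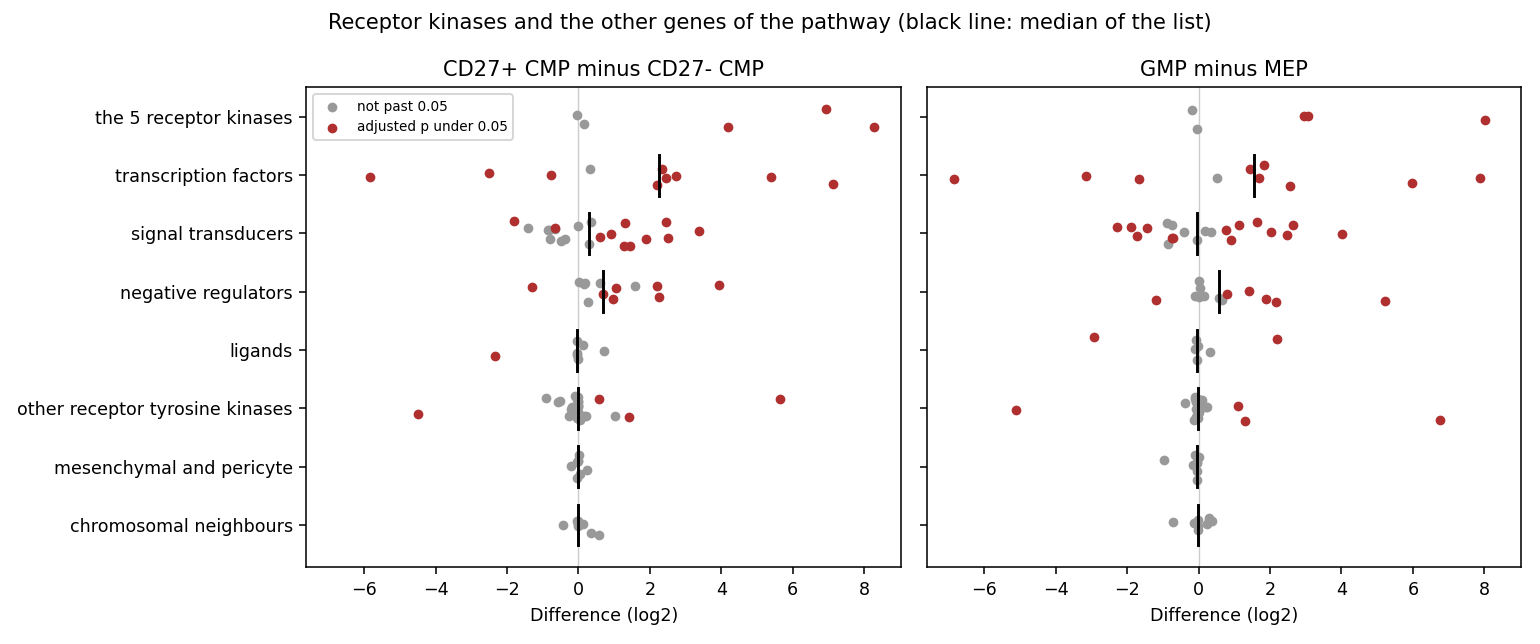
Log2 differences (horizontal axis) of the 5 receptor genes and of the genes in each list, for CD27+ CMP minus CD27- CMP (left) and GMP minus MEP (right), with 1 probe set per gene and a black line at the median of each list. Transcription factors spread widest, while most ligands, mesenchymal markers and chromosomal neighbours outside the family gather near 0.

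Between CD27- CMP and MEP, where 0 of the receptor probe sets passed, 0 of the 86 distinct genes of the lists passed by limma either, against 0.033% of all genes. Of these 86, 12 had an unadjusted p under 0.05, and the differences of the 86 ran from -0.70 to 1.18. The share of all genes under that unadjusted p was not taken.

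Cells that carry Flt3 or Csf1r outside the progenitor gates were looked for by their markers. Of 6 macrophage markers 0 passed between CD27+ CMP and CD27- CMP by limma, and 0 had an unadjusted p under 0.05. Vcam1 (5.10) and Adgre1 (2.96) were higher in GMP than in MEP, and both were also higher in GMP than in CD27+ CMP, while C1qa, C1qb, Mrc1 and Marco did not pass. The mean centred signal of the 6 macrophage markers ran from -0.02 to 0.14 in CD27+ CMP, -0.16 to 0.14 in CD27- CMP, 1.03 to 1.38 in GMP and -0.12 to -0.02 in MEP. Of 5 dendritic cell markers, Itgax (0.44) was higher and Zbtb46 (-5.18) lower in CD27+ CMP than in CD27- CMP, and Xcr1, Siglech and Cd209a did not pass. The dendritic list averaged -0.45 to -0.38 in CD27+ CMP and 0.47 to 0.64 in CD27- CMP, and -0.51 to -0.47 in GMP and 0.52 to 0.70 in MEP. Of its 5 genes, 4 had a range under 1 log2, so these means mostly follow Zbtb46. Zbtb46 averaged -2.47 in CD27+ CMP, 2.71 in CD27- CMP, -2.44 in GMP and 3.03 in MEP. The part of macrophage or dendritic cells in the Csf1r and Flt3 differences was not tested.

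Genes with the nearest pattern were ranked by the root-mean-square difference of centred log2 values over the 12 arrays. The candidates were 7868 genes with a range of at least 1 log2, without gene models that lack a proper name. The filter also dropped every symbol that begins with a capital letter and a digit, so some properly named genes were not ranked. Nearest to Flt3 stood Kcng1 (1.01), Lsp1 (1.06), Wfdc17 (1.14), Epb41l4b (1.41) and Dntt (1.45), so that the closest gene still differed from Flt3 by about 1 log2 on a typical array. In GMP, where Flt3 averaged 1.73, Lsp1 averaged 1.79, Kcng1 0.91 and Dntt, encoding the terminal transferase of lymphoid precursors, -0.08. Nearest to Csf1r stood Ms4a6c (0.54), Ncf4 (0.56), Rab31 (0.59), Tyrobp (0.59) and Cd34 (0.61). Ncf4 encodes a subunit of the phagocyte oxidase and Tyrobp a signalling adaptor of myeloid cells. Cd34 was itself a sort antigen.

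Nearest to Pdgfrb stood Tbc1d10c (0.35), Afap1l1 (0.40), Chn2 (0.46), Otos (0.47) and Tnfaip8l2 (0.48). Tbc1d10c averaged 2.53 in CD27+ CMP, -1.27 in CD27- CMP, 1.30 in GMP and -1.87 in MEP, beside 2.96, -1.24, 1.05 and -2.0 for Pdgfrb. For Kit the nearest were Toe1 (0.21), Tex261 (0.23), Ddx52 (0.24), Polh (0.26) and Thumpd1 (0.27), all of small range, where small distances come easily. Pdgfra had a range under 1 log2 and was not ranked.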

How the data were processed

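RNA of 12 sorted samples was hybridised to Affymetrix Mouse Genome GeneChip arrays. The deposited values come from GCRMA, per the submitters' processing notes, and were read as log2 signals. For the GCRMA version, the log base, and the step that centred each probe set on its median, no statement was found in the labels or the files. The number of arrays limits the precision. Of 45037 probe sets, 34945 had 1 gene symbol, 932 several and 9160 none, and 34741 of those with 1 symbol were found in RefSeq. A linear model with 4 population means was fitted to all 12 arrays with limma 3.58.1 in R 4.3.3 (lmFit and eBayes, two-sided), with Benjamini-Hochberg adjustment over 45037 probe sets for the receptors and over 18193 genes, each by its probe set of largest SD, for the lists. The threshold was an adjusted p of 0.05, and the procedure was tested on simulated data. The text names all receptor probe sets, of the lists, genes past the threshold (at most the 4 with the largest differences in each direction, unless named in another comparison) and genes that did not pass with their values, and the 5 genes nearest in pattern. Other probe sets are given for some of the named genes. The receptors and lists were chosen with earlier results of these data known. Alternatives were quantile normalization, array centring, array weights, the replicate number as a block, a range filter of 1 log2, robust moderation, the mean of a gene's probe sets, only the 6 arrays compared, and leaving out each array.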

Additional observations from a re-analysis of the deposited data

How the results depend on the processing

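Of the 26 receptor probe set differences that passed, 24 passed under each alternative run and 2, both of Pdgfrb 1417148_at, did not. Of the 40 that did not pass, 11 passed in some alternative. Array weights, which changed several counts, ran from 0.184 for CD27- CMP replicate 3 to 11.1 for MEP replicate 2. They came from the gene-by-gene method of limma, since its REML method did not converge. With them 3 receptor probe sets passed between CD27- CMP and MEP in place of 0, and 10 between CD27+ CMP and MEP in place of 6. Csf1r (2.73), Pdgfrb (1.40) and Kit 1452514_a_at (-0.33) then passed for CD27- CMP minus MEP. For CD27+ CMP minus MEP those gained were Kit 1415900_a_at (-0.73) and 1452514_a_at (-0.27), and Pdgfra 1421917_at (-0.062) and 1421916_at (-0.035). The Pdgfra probe sets thus passed at very small differences. List genes passing with array weights numbered 14 in place of 9 between CD27+ CMP and GMP (3 with only those 6 arrays fitted), 11 in place of 0 between CD27- CMP and MEP, and 53 in place of 34 between CD27+ CMP and MEP. Over all probe sets 5761 were then higher and 21954 lower between CD27+ CMP and MEP, in place of 3453 and 3757. Between CD27- CMP and MEP 1608 were higher and 2212 lower, in place of 5 and 15. The cause was not tested. For the most variable probe set of each receptor, signs turned in the following cases, none of which passed. Quantile normalization gave 0.0071 for Pdgfra between CD27+ CMP and CD27- CMP and 0.0035 between CD27+ CMP and MEP. Leaving out 1 array gave -0.14 to 0.34 for Kit and -0.049 to 0.0073 for Pdgfra between CD27+ CMP and CD27- CMP, -0.011 to 0.17 for Flt3 between CD27- CMP and MEP, and for Pdgfra -0.014 to 0.019 between CD27+ CMP and GMP and -0.0048 to 0.052 between CD27- CMP and GMP. With the replicate number as a block, 5 receptor probe sets passed between GMP and MEP in place of 6 and 2 between CD27+ CMP and GMP in place of 3. Same-numbered arrays deviated together (correlation over 0.1) in 9 of 18 pairs, against 11 of 36 pairs with different numbers. The median correlation was 0.115 for the first and -0.069 for the second. Same-numbered pairs ran from -0.33 for CD27- CMP and GMP replicates 1 to 0.58 for GMP and MEP replicates 3. Whether the numbers mark pairs cannot be told from these values, and the main fit did not use them. The range filter left no value for Pdgfra.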
